A study of Mus musculus with 8 samples.

Results

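The clustered protocadherin genes comprised every protein-coding gene of GENCODE M21 on mouse chromosome 18 (GRCm38) whose symbol starts with Pcdha, Pcdhb or Pcdhg. These were 57 gene records of 21670 protein-coding genes on the autosomes and X. The set held 12 alpha genes (Pcdha), 22 beta genes (Pcdhb), 12 gamma A genes (Pcdhga), 6 gamma B genes (Pcdhgb) and 5 C-type genes (Pcdhac1, Pcdhac2, Pcdhgc3, Pcdhgc4 and Pcdhgc5). The annotation gives the symbol Pcdha11 to 2 records, so there were 56 symbols. The record with start site 37005203 is called Pcdha10 here, as in RefSeq. The alpha array ran from 36930184 to 37187661, the beta array from 37264938 to 37524479 and the gamma array from 37661793 to 37841873 of chromosome 18, over 257, 260 and 180 kb. The members were chosen by symbol and position, with no methylation value in the rule.

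Clustered protocadherins are cell-surface adhesion proteins that give neurons an identity by which a cell tells its own branches from those of others. Each alpha and gamma gene is a large variable first exon with its own promoter, spliced to constant exons shared by the whole array, whereas each beta gene is a single exon. A neuron uses a few of the alternate genes (all but the C-type), picked apparently at random, while C-type genes are used more uniformly. Choice involves CTCF and cohesin, which bind the promoters and distant enhancers, and promoter methylation, which is laid down early in development by DNMT3B with a part for SMCHD1 and is linked to silence of the gene. These genes are known for their role in the brain and are not markers of lymphocytes.

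Whole-genome bisulfite sequencing was used to read DNA methylation in splenic lymphocytes of C57BL/6J mice aged 6 to 8 weeks, with no transgene or treatment. The 8 samples formed 4 groups of 2, namely resting CD43- B cells and naive CD4+ CD62L+ T cells of females and of males, and cells were pooled over animals. Each group had 1 deposited file for its 2 samples, so there is no replicate within a group and the spread was judged between the 4 files. Bisulfite reads 5-methylcytosine and 5-hydroxymethylcytosine alike. Mean autosomal depth at CpGs was 14.6 to 17.7 reads, and the autosomal level was 79.5% to 80.7%. The labels were checked against marker promoters. All 7 B cell markers were lower in B cells and all 8 T cell markers were higher in B cells, with median levels of 12.5% (females) and 15.3% (males) in B cells and 80.8% and 79.6% in T cells for the B cell markers, and of 85.2% and 82.6% in B cells and 6.48% and 5.50% in T cells for the T cell markers. Both CD8 markers were called too, at 38.5% to 70.9% in the T cell files against 89.5% to 90.3% in the B cell files, and their part in the results below was not tested. None of 4 myeloid, 3 NK, 3 erythroid or 4 brain marker promoters was called. Among them the myeloid gene Lyz2 read 41.5%, 64.1%, 50.7% and 66.7% (female B, female T, male B, male T), a difference of -19.3 points with an adjusted p of 0.0368, and the haemoglobin gene Hbb-bt read 75.7%, 93.3%, 72.1% and 92.6% (-19.1 points, 0.117). Both were lower in both B cell files. Others of these markers differed the other way, with the haemoglobin gene Hba-a1 at 64.6%, 53.9%, 72.1% and 54.5% (14.1 points, 0.4) and the myeloid gene Itgam at 76.3%, 71.5%, 70.8% and 66.1% (4.79 points, 0.541). The part of these markers in the results was not tested.

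The level is the share of methylated reads over all CpGs of a region with at least 5 reads in all 4 files. A promoter is 1 kb to either side of the start site. All 57 promoters held enough CpGs (11 to 117 each, 156 to 2719 reads per file), and so did all 57 first exons (57 to 153 CpGs, 821 to 3380 reads).

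Most clustered protocadherin promoters were partly methylated in both lymphocyte types. Their median level was 58.8% in B cells and 57.5% in T cells of females, and 57.7% and 56.0% in those of males, whereas the median was 14.5% over all 21087 tested promoters. A mean level between 30% and 75% was found for 51 of 57 members and for 10.7% of all promoters. Of the 52 alternate genes, 50 lay in that band. Over the 1 kb to either side of the start, beta genes stood highest, with a median of 64.0% (45.7% to 76.3%). Gamma A followed with 55.8% (43.5% to 64.6%), then gamma B with 53.1% (31.8% to 61.5%) and alpha with 50.3% (39.6% to 60.6%). These ranges overlap. In the 250 bp upstream of the start, alpha genes stood highest instead, with a mean over CpGs of 48.2%. Gamma A read 31.4%, beta 30.5% and gamma B 23.8% there. The C-type promoters had a median of 6.15% and ran from 1.79% to 88.2%. A partial level in pooled cells can come from part of the cells, from 1 of 2 alleles or from part of the CpGs of each molecule. The files give levels per CpG and not per molecule, so these cannot be told apart.

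**Figure D1:**
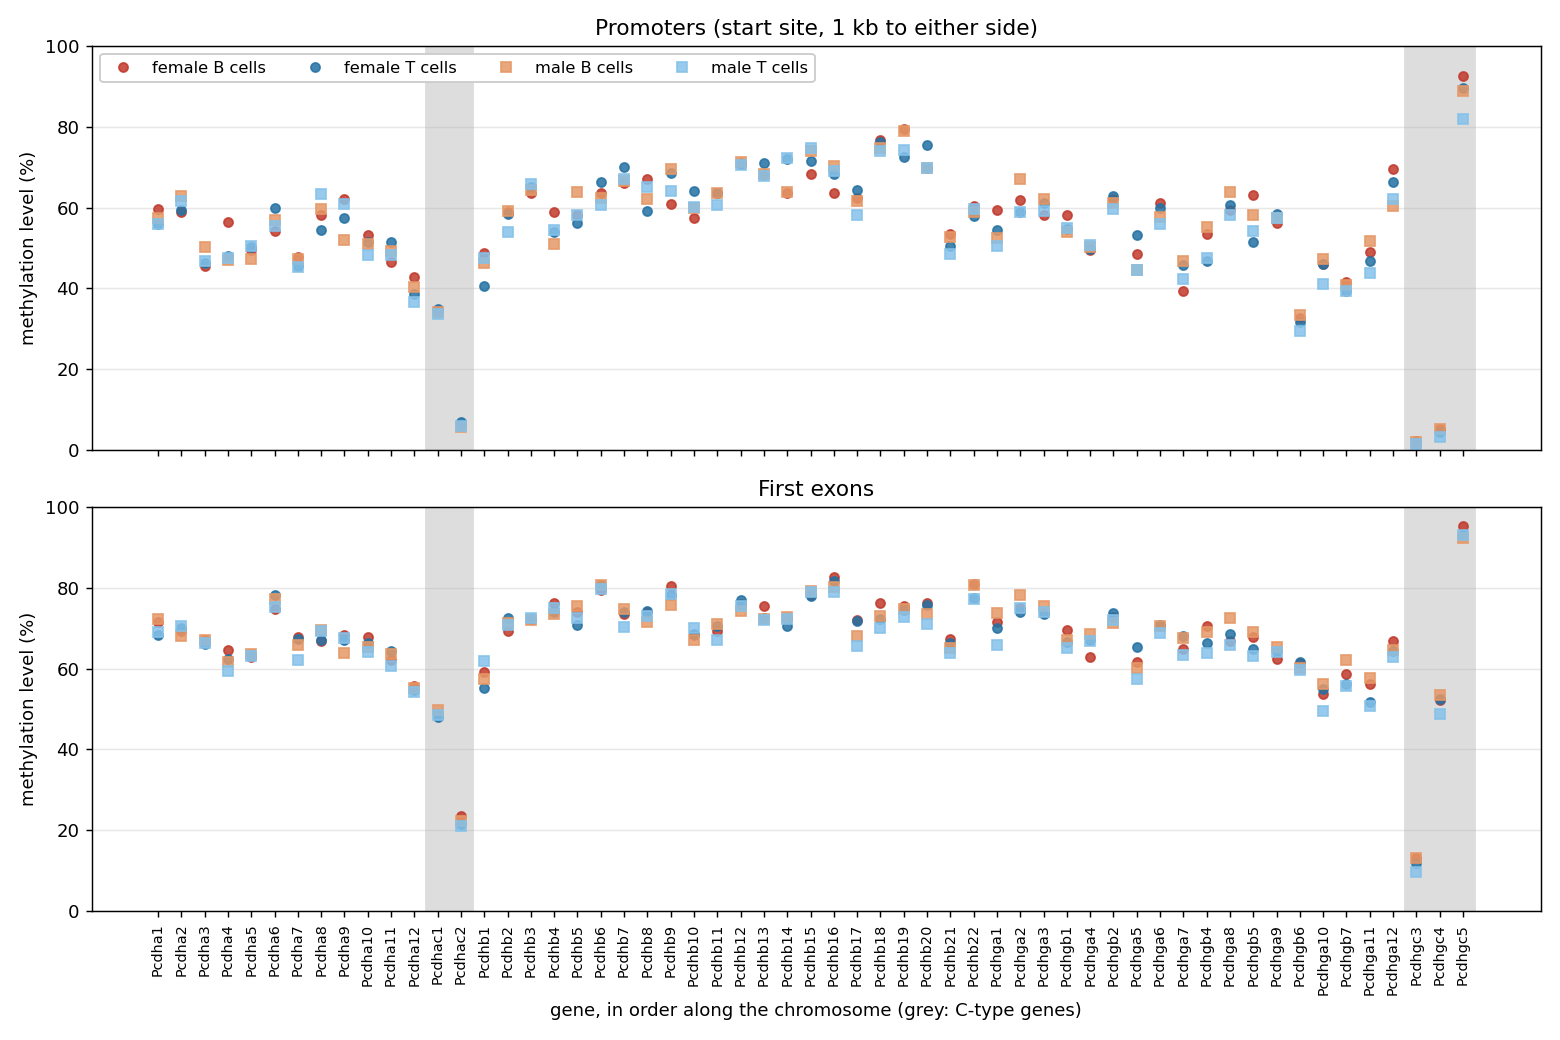
Promoter and first-exon methylation level (%) of each of the 57 genes in chromosomal order, with 1 point per file, files marked by colour and C-type genes by grey bands. The 4 files lie close together for each gene, alternate genes lie mostly between 30% and 75%, and Pcdhac2, Pcdhgc3 and Pcdhgc4 promoters lie under 10%.

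Within each alternate family the range over genes was wider than the widest range over the 4 files of any gene, which was 11.5 points. The lowest alternate promoter was Pcdhgb6, at 32.8% in B and 31.7% in T cells of females and 33.5% and 29.4% in those of males. Pcdhgb2, in the same family, read 62.2%, 62.9%, 61.2% and 59.6%. No file of one gene reached any file of the other. Groups of 4 values below keep this order of files. Among the alpha genes Pcdha12 was lowest (42.8%, 38.7%, 40.4% and 36.6%) and Pcdha2 was highest (58.8%, 59.4%, 62.7% and 61.6%). Both are alpha genes, and their files again did not overlap. Among the beta genes, Pcdhb1 was lowest (48.6%, 40.6%, 46.3% and 47.4%) and Pcdhb19 was highest of all alternate promoters (79.5%, 72.6%, 78.9% and 74.3%). Within 250 bp of the start Pcdhb19 averaged only 37.6% on 6 CpGs, against a median of 39.5% over 50 alternate genes. In gamma A, Pcdhga7 read 39.4%, 45.7%, 46.7% and 42.3%, and Pcdhga12 read 69.6%, 66.3%, 60.4% and 62.1%. The range over the 4 files had a median of 5.70 percentage points per member promoter, and of 9.56 points for all promoters with a mean level between 30% and 75%. The latter include promoters that switch between B and T cells, which have wide ranges. Over the 57 promoters the files correlated with Pearson's r of 0.965 to 0.979 (a description across genes, which share libraries and sequence).

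First exons carried more methylation than the windows around the start. The median over the 57 first exons was 69.3%, 68.6%, 69.1% and 67.2%. It was 94.5% over all exons and 0.820% over first exons of all protein-coding genes. The band of 30% to 75% held 46 of 57 members, 5.94% of all exons and 5.89% of all first exons. Medians were 73.1% for beta (58.4% to 80.9%), 66.7% for gamma B (58.1% to 72.4%), 66.3% for alpha (54.9% to 76.3%) and 66.2% for gamma A (53.5% to 75.5%). Pcdhb16, a beta gene, was the highest alternate exon, at 82.7%, 81.7%, 80.2% and 78.9%. Pcdhga10, a gamma A gene, was the lowest, at 53.7%, 54.8%, 56.2% and 49.5%, whereas Pcdhga2 of the same family read 74.9%, 73.9%, 78.1% and 74.9%. In the alpha array Pcdha12 was lowest and Pcdha6 highest. Pcdha12 read 55.7%, 54.7%, 55.1% and 54.2%, and Pcdha6 read 74.7%, 78.1%, 77.2% and 75.1%, a gap wider than the spread over files of either. The lowest beta exon was Pcdhb1 (59.1%, 55.1%, 57.4% and 61.9%), and the gamma B extremes were Pcdhgb7 (58.5%, 56.3%, 62.1% and 55.6%) and Pcdhgb2 (72.6%, 73.7%, 71.2% and 72.1%). Pcdha12, Pcdhb1 and Pcdhgb2 held the same end of their family in promoters and in first exons. The first 1 kb of an exon is also part of its promoter window, so these 2 measures are not independent.

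Single CpGs were partly methylated too. Of 4975 CpGs in alternate first exons, 59.98% had a mean level between 20% and 80%, 37.3% were above 80% and 2.75% were under 20%. Of 445630 first-exon CpGs of all protein-coding genes, 5.91% lay between 20% and 80% and 83.6% were under 20%. The 540 CpGs of C-type first exons fell mostly to the ends of the scale, with 52.0% under 20% and 26.9% above 80%. The same CpG read alike in the 4 files, with r of 0.855 to 0.876 over 5511 CpGs, as a description.

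**Figure D2:**
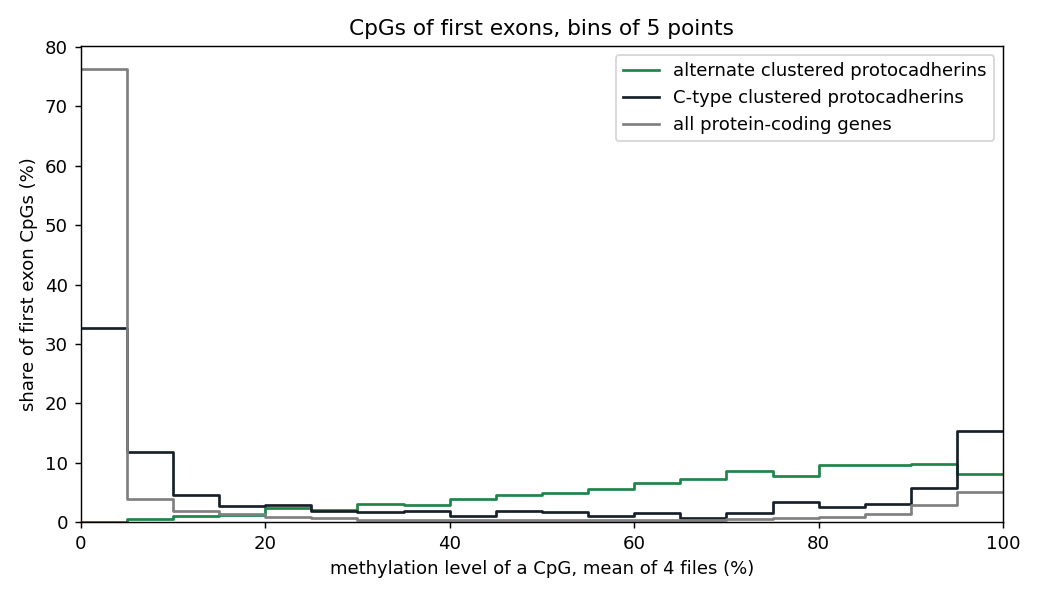
Share of first-exon CpGs (%) by mean methylation level in bins of 5 points, for alternate genes, C-type genes and all protein-coding genes. Alternate genes have 59.98% of their CpGs between 20% and 80%, against 5.91% for all genes.

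Methylation dipped at the start site and rose along the exon. From 250 bp upstream to the start, the mean over CpGs was 23.8% in gamma B, 31.4% in gamma A, 30.5% in beta and 48.2% in alpha genes, against 8.3% for all protein-coding genes. From 750 to 1000 bp into the gene it was 73.6%, 73.4%, 77.9% and 73.4%, against 29.0% for all genes. Between 750 and 1000 bp upstream it was 89.5%, 89.1%, 75.7% and 77.4%, so the dip was bounded on both sides. The alpha genes kept a level of 44.9% to 46.4% from the start to 750 bp, a broader trough than in beta genes, which reached 74.99% by 500 to 750 bp. Of the alternate genes, 50 had at least 3 CpGs both within 250 bp of the start and in the exon from 750 bp on. All 50 were lower at the start in every file, with medians of 39.5% (18.6% to 65.2%) and 74.9% (61.1% to 92.3%), and the median difference was 32.8 points.

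**Figure D3:**
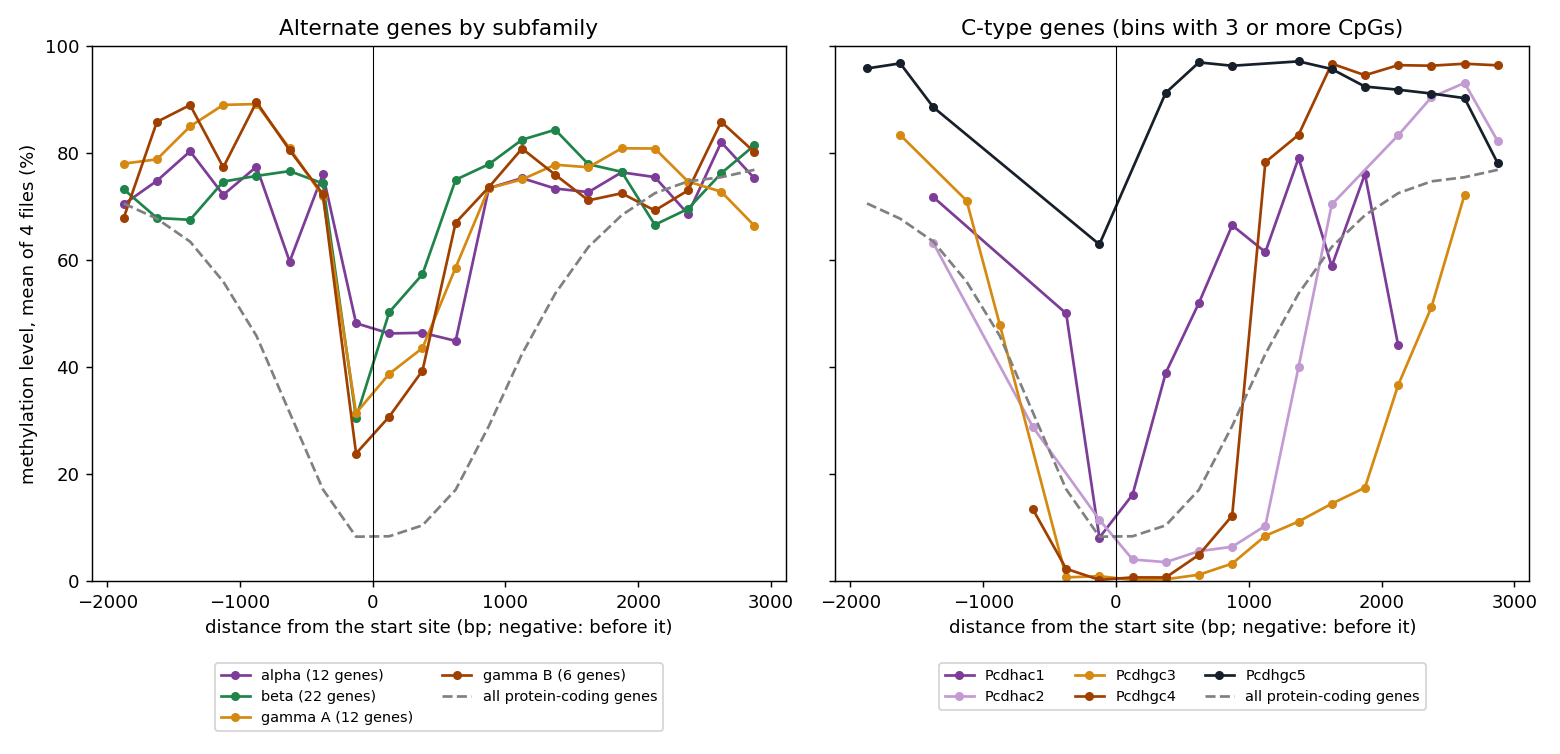
Mean methylation level (%) over CpGs in 250 bp bins by distance from the start site (bp), for the gene families, the C-type genes and all protein-coding genes, as the mean of the 4 files. From 1000 bp upstream to 1000 bp into the gene the alternate families lie above the all-gene line, dip around the start and reach 73.4% to 77.9% at 750 to 1000 bp, and further out the lines cross.

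Pcdhb1, the first beta gene, lacks the conserved sequence element that most other promoters of the cluster carry. Within 250 bp of its start it read 19.6%, 13.4%, 18.5% and 22.9%, the lowest mean of the 50 alternate genes compared. The files of Pcdhgb7 (26.2%, 19.6%, 17.6% and 16.1%) overlapped these. In the 250 bp upstream alone Pcdhb1 averaged 25.4%, above other beta genes such as Pcdhb2 (5.06%) and Pcdhb3 (11.9%), each on 5 CpGs. The exon of Pcdhb1 from 750 bp on read 78.0%, 81.8%, 77.0% and 78.7%. The B and T cell files overlapped around the start, while in the exon both B cell files lay below both T cell files.

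The 5 C-type genes did not share a level. Pcdhgc3, the first of the gamma C-type genes, was nearly free of methylation at its promoter in all 4 files, at 2.09% (95% Wilson interval 1.56% to 2.81%), 1.83% (1.38% to 2.42%), 1.85% (1.36% to 2.52%) and 1.40% (1.02% to 1.91%). Its bins from 500 bp upstream to 1000 bp into the gene read 0.20% to 3.25%, and the level reached 72.2% only at 2500 to 2750 bp. Pcdhgc4, the next variable exon, read 5.12%, 4.54%, 5.19% and 3.21% at the promoter. Its profile changed over a short stretch, from 12.2% at 750 to 1000 bp to 78.3% in the next bin, with 96.7% at 1500 to 1750 bp. The whole first exon averaged 52.2%, 52.4%, 53.4% and 48.8%, a mean over 2 unlike stretches.

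Pcdhgc5, the last variable exon of the gamma array, was the opposite, at 92.6%, 89.5%, 88.9% and 82.0% over the promoter. Its bin just upstream of the start was lower, with 77.3% in female B and 78.5% in male B cells against 54.4% in female T and 41.5% in male T cells, but it held only 6 CpGs and 88 to 121 reads per file. The promoter difference of 4.98 points between B and T cells had an adjusted p of 0.189. In the alpha array, Pcdhac2 read 5.85%, 7.03%, 5.795% and 5.91% at its promoter and stayed at 3.52% to 11.4% from 250 bp upstream to 1250 bp. Pcdhac1 was in between, at 34.4%, 34.8%, 34.1% and 33.6%, with 8.10% just upstream of the start and 66.5% at 750 to 1000 bp. Over their first exons Pcdhac2 read 23.4%, 21.4%, 22.2% and 20.9%, Pcdhac1 read 48.7%, 48.1%, 49.6% and 48.4%, and Pcdhgc5 read 95.4%, 93.1%, 92.2% and 93.1%. The 5 promoters kept 1 order in the 4 files (Pcdhgc3, Pcdhgc4, Pcdhac2, Pcdhac1, Pcdhgc5, from low to high), though the Wilson intervals of Pcdhgc4 and Pcdhac2 overlapped in both B cell files.

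Families differed in CpG content and in order along the chromosome. First exons held a median of 4.74 CpGs per 100 bp in alpha, 4.75 in gamma B, 3.13 in gamma A and 2.07 in beta genes. Beta exons, each a whole gene, were longer, with a median of 3714 bp (2588 to 8695). The medians were 2479.5 bp in alpha, 2558 bp in gamma B and 2609.5 bp in gamma A genes, and length was not taken into account. Over the 52 alternate genes the first-exon level was lower where CpG density was higher (r = -0.595), and within the families r was -0.274 to -0.533. The level was also lower further along the gamma array, with r = -0.718 over 12 gamma A genes and -0.822 over 6 gamma B genes, where CpG density rose along the array (r = 0.742 and 0.755). For promoters the r with position was -0.748 in gamma B but -0.091 in gamma A genes. Alpha genes gave r = -0.489 for position and 0.017 for density with position, and beta genes gave r = 0.268 for level with position. These are descriptions across genes that share libraries and ancestry, and position and CpG density cannot be told apart in the gamma array.

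Many members share stretches of sequence, which bears on how reads are placed. After conversion in silico, 49 of 57 first exons shared some 50-base stretches with another member over more than 5% of their length (median over all members 27.7%, highest 61.4%). All 5 C-type exons shared none. At the members, 92.1% to 100% of first-exon CpGs were used, with 17.5 to 21.96 reads per CpG. Restricted to the 3457 of 5515 CpGs outside shared stretches, the median first-exon level was 70.9%, against 68.6% with all CpGs (an alternative chosen after seeing the data).

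The constant exons, which code for the cytoplasmic end common to alpha or to gamma proteins, were not all alike. Of 6 constant exons 4 had at least 3 usable CpGs. The large last constant exon of the alpha array (37184946 to 37187657, 34 CpGs) read 73.8%, 68.5%, 75.7% and 72.6%, and the short first one (37156155 to 37156213, 3 CpGs) read 95.2%, 95.8%, 86.2% and 88.2%. The first constant exon of the gamma array (37825021 to 37825079, 5 CpGs) was low, at 6.56%, 1.52%, 0.833% and 1.27%. The last one (37839903 to 37841873, 36 CpGs) read 70.4%, 83.6%, 76.4% and 83.8%. Both B cell files lay below both T cell files. Its difference of -10.4 points had an adjusted p of 3.17e-04 in the quasi-binomial fit but 0.611 with limma, and it was -3.58 points (adjusted p = 0.814) at a minimum of 10 reads per CpG. None of the 4 exons was called at 20 points (2.27% of all exons were called), and 1 had an unadjusted p under 0.05. Limma and Fisher's exact test in both sexes called none (at any size 947 of 121397 and 2.79% of all exons were).

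The comparison of B with T cells asked whether the clusters differ between the 2 lymphocyte types. A region was called at an adjusted p under 0.05 (Benjamini-Hochberg over all regions of a kind) and a mean difference of at least 20 points. No member promoter was called by the quasi-binomial fit, where 0.991% of all promoters were, and 7.13% of those with a mean level of 30% to 75%. An unadjusted p under 0.05 was found for 7 of 57 members (12.3%, against 14.8% of all promoters), and the smallest adjusted p was 0.13. At any size of difference the quasi-binomial fit and limma called none, against 3.43% of all promoters by the former and 380 of 21087 by the latter. Fisher's exact test called 2 in both sexes, Pcdhb14 and Pcdhgb4 (5.8% of all promoters and 16.8% of those at 30% to 75%). Promoter levels were higher in B cells in both sexes for 20 members (35.1%), lower in both for 11 and of opposite sign for 26. Over all 21087 promoters these counts were 6755 (32.0%), 5477 and 8810, so the share of members higher in both sexes was near that of all promoters.

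The widest promoter difference was at Pcdhb14, a beta gene, at 63.6%, 72.1%, 63.9% and 72.3%. The files did not overlap, and the difference was -8.46 points (adjusted p = 0.148). Pcdhgb5 read 63.0%, 51.6%, 58.2% and 54.2% (7.76 points, adjusted p = 0.156), and Pcdhgb4 read 53.5%, 46.7%, 55.2% and 47.5% (7.21 points, adjusted p = 0.13). Both are gamma B genes whose promoters read higher in both B cell files. The next were Pcdhb19 (5.75 points, adjusted p = 0.294), Pcdhga2 (61.9%, 58.9%, 66.995% and 59.0%, 5.48 points, 0.266) and Pcdhga11 (49.0%, 46.7%, 51.6% and 43.8%, 5.04 points, 0.284). After Pcdhb14, the promoters lower in B cells in both sexes differed little. Pcdhb10 differed by -3.49, Pcdhb20 by -2.91, Pcdhga5 by -2.31 and Pcdhb7 by -2.21 points. Their adjusted p ran from 0.698 to 0.84, and in males each of the 4 differed by under 1 point. None of these promoters passed the threshold.

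First exons gave smaller differences from more reads. No first exon was called at 20 points by the quasi-binomial fit (2.27% of all exons were). At any size limma called none, against 947 of 121397 exons and 27 of 1020 first exons at 30% to 75%. Fisher's exact test called 1 in both sexes (2.79% of all exons and 12.8% of first exons at 30% to 75%). An unadjusted p under 0.05 was found for 11 of 57 members (19.3%, against 12.3% of all exons). The level was higher in B cells on average for 42 of 57, with a median difference of 1.12 points. It was higher for 59509 of all 121397 exons (median difference 0 points) and for 453 of 1020 first exons at a mean level of 30% to 75% (-1.04 points). At any size of difference the quasi-binomial fit put 6 of 57 members at an adjusted p under 0.05, all higher in B cells, against 2.71% of all exons higher in B cells and 2.54% lower. Most exons are far more methylated than the members, so first exons at a mean level of 30% to 75% are closer in level. This band too takes in exons that switch between B and T cells, and its shares count them. Of the 1020 first exons in the band 9.51% passed higher and 12.4% lower in B cells, and 10% were called at 20 points. Of the 46 members in that band 4 passed, all higher in B cells, and 19.6% had an unadjusted p under 0.05, against 34.8% of the 1020. The 6 were Pcdhga11 (females 56.2% in B and 51.8% in T cells, males 57.6% and 50.8%, adjusted p = 6.08e-04), Pcdhgb5 (67.9% and 64.7%, 69.1% and 63.1%, 1.44e-03), Pcdhgb4 (70.6% and 66.3%, 69.0% and 63.9%, 2.42e-03), Pcdhgb7 (58.5% and 56.3%, 62.1% and 55.6%, 9.62e-03), Pcdhb22 (81.0% and 77.5%, 80.6% and 77.2%, 0.0138) and Pcdhgc3 (13.2% and 11.9%, 13.0% and 9.64%, 0.0294). Pcdhga1, the first gamma gene, had a difference of similar size but did not pass (71.5%, 69.9%, 73.7% and 65.7%, 4.75 points, adjusted p = 0.14). Among exons with the same sign in both sexes, the largest differences the other way were -1.54 points at Pcdha2 and at Pcdhb10, -1.06 at Pcdhb12, -0.96 at Pcdhgb2 and -0.88 at Pcdhb8, with adjusted p of 0.737 to 0.927. In each of the 6 exons that passed, both B cell files lay above both T cell files, by means of 2.35 to 5.57 points. The adjusted p of these 6 was 0.88 to 0.91 with limma and 0.25 to 0.43 with a dispersion prior from all exons, so they rest on how the spread was estimated. Female B cells also had the highest global level, at 80.7% against 79.5% to 79.7%, and its part was not tested.

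**Figure D4:**
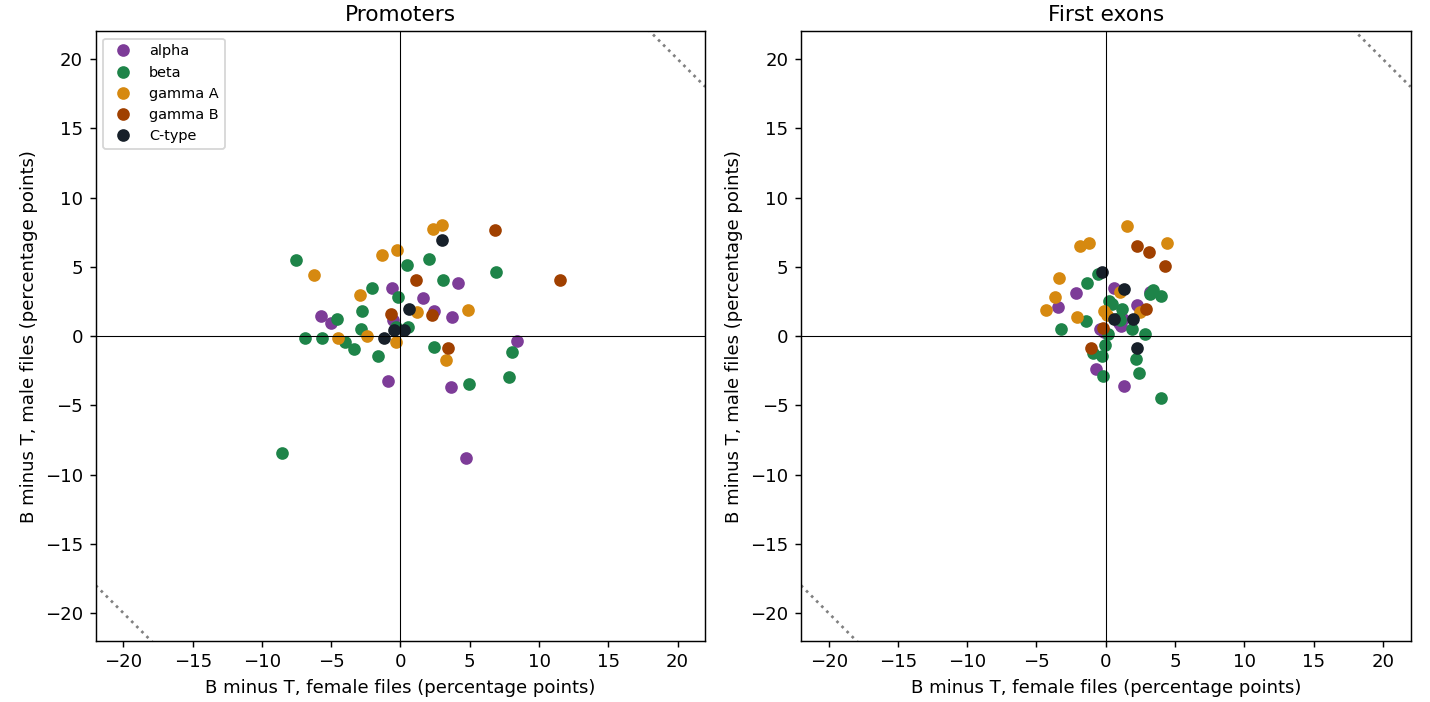
Difference in methylation level between B and T cells (percentage points, B minus T) for the promoter and the first exon of each member, for females and males. Mean differences lie above 0 for 37 of 57 promoters and 42 of 57 first exons. Points stay within 11.5 points of 0, with the lowest mean at the Pcdhb14 promoter (-8.46) and the highest at the Pcdhgb5 promoter (7.76).

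Females and males were compared in the same fits. No member promoter was called between females and males (0% of autosomal promoters were called), by the quasi-binomial fit, limma or Fisher's exact test. In the first of these 4 had an unadjusted p under 0.05 (7.02%, against 4.75% of autosomal promoters and 5.03% of those at 30% to 75%), and the smallest adjusted p was 0.997. No first exon was called at 20 points (0.00674% of autosomal exons were), and 6 had an unadjusted p under 0.05 (10.5%, against 4.90% of autosomal exons and 11.95% of autosomal first exons at 30% to 75%). At any size 1 passed, Pcdhb17, a beta gene, with 72.1% and 71.8% in females and 68.2% and 65.6% in males (5.08 points, adjusted p = 0.0335), where 0.117% of autosomal exons and 1.63% of autosomal first exons at 30% to 75% did. The female and male files did not overlap, but with limma the adjusted p was 0.99902. No difference in the cell type effect between the sexes was called at a member promoter (smallest adjusted p = 0.938) or first exon (0.656), where 0% and 0.0593% of all promoters and exons were called for that term. This term is the 1 residual degree of freedom of the fit, and it was tested against a dispersion estimated from such residuals over many regions. A difference common to many regions would widen that dispersion and could be missed.

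Between the exons most 1 kb windows were highly methylated, with medians of 82.6% in the alpha array (125 windows), 79.0% in the beta array (83 windows) and 91.6% in the gamma array (77 windows). From 10 kb before the alpha array to 10 kb after the gamma array 741 windows were tested, and 6 were called between B and T cells (0.810%, against 2.08% of all windows). Of these, 5 were lower in B cells (0.913% of all windows). The alpha array had 0 of 190 and the beta array 0 of 206, while the gamma array had 5 of 173 windows (2.89%), and the last called window lay beyond it. The balance of direction held only at 20 points. At any size of difference 20 of the 741 windows passed in the quasi-binomial fit, 9 of them lower in B cells. In the gamma array 13 passed, 4 of them lower. The share of all 1 kb windows that passed at any size is not given here, so these counts describe direction only and are not set against the genome.

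The 2 windows with the largest differences of the 6 lay between the first exons of Pcdhga12, the last gamma alternate gene, and Pcdhgc3. This stretch is intronic to the gamma genes that start upstream, since they splice to the constant exons beyond it, and it also lies within the annotated protein-coding genes Gm37013, Gm37388 and Gm42416. The window 37787001 to 37788000 read 34.7%, 98.1%, 13.7% and 89.4% (-69.5 points, adjusted p = 1.09e-39, 0.0042 with limma). Its neighbour 37786001 to 37787000 read 58.1%, 92.9%, 56.3% and 91.6% (-35.1 points, 1.33e-14, 0.0219 with limma). The window 37791001 to 37792000 read 70.5%, 92.3%, 68.9% and 96.0% (-24.5 points, 1.72e-05, 0.0503 with limma). B and T cell files did not overlap in any of the 3, and each held 7 CpGs.

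Seen at single CpGs, the low stretch in B cells was compact. From 37786709 to 37787708 all 11 CpGs were lower in B cells by at least 20 points in both sexes (a run chosen after its values were seen). In females they read 10% to 60% in B and 85.4% to 100% in T cells, and in males 0% to 58.8% and 66.7% to 100%, on 5 to 41 reads. The run spans 999 bp and lies 18.7 to 19.7 kb before the start of Pcdhgc3 and 18.2 kb after the end of the Pcdhga12 first exon. No exon or start site of GENCODE lies in the 3 windows.

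At the far end of the gamma array, B cells were lower again. Window 37841001 to 37842000, over the end of the last constant exon of the array at 37841873, read 46.0%, 66.2%, 49.5% and 72.2% (-21.4 points, adjusted p = 4.37e-09, 0.302 with limma). Some of its CpGs lie beyond the exon. At a minimum of 10 reads per CpG it was -12.0 points with an adjusted p of 0.504. Window 37848001 to 37849000, in an intron of the neighbouring gene Diaph1, a regulator of actin filaments, read 45.6%, 72.5%, 46.5% and 77.6% (-29.0 points, 5.61e-14, 0.138 with limma). The 1 window higher in B cells, 37809001 to 37810000, held only 3 CpGs at a Pcdhgc3 exon and read 91.3%, 75.9%, 92.5% and 63.4% (22.2 points, 0.0158, 0.111 with limma), and Fisher's exact test in females gave an adjusted p of 0.59. The p-values of windows rest on a spread taken as common to all windows. With the dispersion prior from all windows none of the 6 passed (adjusted p 0.0625 to 0.327).

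**Figure D5:**
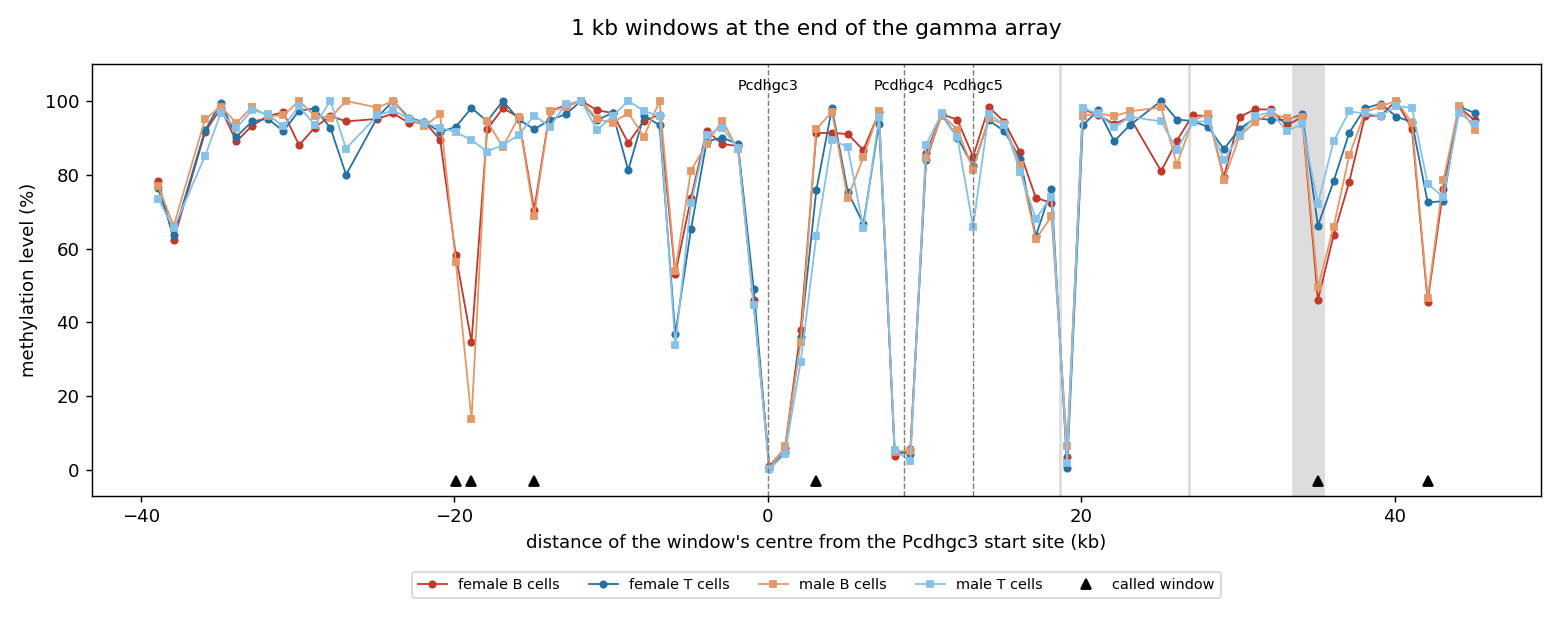
Methylation level (%) of 1 kb windows in the 4 files by distance from the start of Pcdhgc3 (kb), over the end of the gamma array. B cell lines drop about 19 kb before Pcdhgc3, to 34.7% and 13.7%, where T cell lines stay at 98.1% and 89.4%.

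No window of the 741 was called by sex (0.00103% of autosomal windows were), and 54 had an unadjusted p under 0.05 (7.29%, against 4.73% of autosomal windows). Of the 741 windows 455 lay between exons, gaps and flanks included, with a median of 83.1%, and 7 of the 455 read under 40% in all 4 files. A run of 3 was consecutive, from 37216001 to 37219000 in the gap between the alpha and beta arrays, and read 38.1%, 32.5%, 26.9% and 29.6%, then 21.2%, 25.7%, 19.7% and 21.5%, then 9.55%, 11.9%, 13.8% and 9.79%. They have no annotated start site and their midpoints lie at -48437 to -46437 bp from the start of Pcdhb1. B and T cell files overlapped in the outer windows, and in the middle one both B cell files lay below both T cell files (-3.13 points, adjusted p = 0.724). The other 4 lay at starts of Gm38097, an antisense transcript, of Gm10544, of Taf7, a subunit of the general transcription factor TFIID, and of the long non-coding RNA 3222401L13Rik.

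Genes that act on or with the clusters were compared by their promoters. Of 22 regulators (CTCF, cohesin, DNA methyltransferases and partners) 20 had a mean level under 20%, among them Ctcf at 0.056% to 0.453%, Smchd1 at 0.908% to 1.32% and Dnmt3b at 7.95% to 14.3%. None was called and none had an unadjusted p under 0.05. Wiz, a zinc finger partner of the G9a methyltransferase complex, read 49.3%, 55.2%, 48.4% and 48.8%. The other was Stag2, an X-linked cohesin subunit, with 38.2% and 46.0% in females and 0% in both male files, and one X of female cells is silenced. All 11 partners of the cytoplasmic end were under 20%, with none called, 3 at an unadjusted p under 0.05 (14.8% of all promoters) and no difference above 2.31 points. Of 13 protocadherins outside the clusters none was called, 2 had an unadjusted p under 0.05 and 10 were under 20%, and only 2 lay in the band of 30% to 75% that held 51 of 57 clustered members. Of 20 other genes within 250 kb, 13 were under 20%, 5 above 75% and none was called, with 2 at an unadjusted p under 0.05. The 20 include Gm37013 (mean 84.3%), Gm37388 (78.7%) and Gm42416 (49.8%). Their promoter windows overlap sequence of Pcdha6, Pcdha7 and Pcdha4, so they are not separate from the members.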

How the data were processed

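Whole-genome bisulfite libraries of 8 samples were deposited by the authors as 4 tables, 1 per group, each with a methylation level (a fraction) and a coverage (a count of reads) per CpG. The submitters' processing notes name Bismark 0.13.1, Trim Galore, FastQC and the build mm10. The files list CpGs with at least 5 reads. The labels do not say whether a table merges both samples of a group. The name of each table carries the number of 1 of the 2 samples, which points to a single sample per table, but no label states it. Duplicate removal and conversion rates are not given in the sources used here.

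Methylated reads were taken as fraction times coverage, rounded. CpGs needed 5 reads in all 4 files and regions 3 CpGs. Regions were promoters (1 kb to either side of the start of 1 transcript per gene), exons and 1 kb windows genome-wide. A quasi-binomial model with cell type and sex had 1 residual degree of freedom, and its dispersion was moderated with squeezeVar of limma 3.58.1 (R 4.3.3), its prior taken from regions with at least 5 expected methylated and unmethylated reads per file. F tests were adjusted by Benjamini-Hochberg over all regions of a kind (autosomes apart for sex), and the code was tested on simulated data. The dispersion was estimated from the spread between files, which may be technical. Its prior had 9.54 degrees of freedom for promoters, 734 for exons and infinitely many for windows. P-values of exons and windows thus rest almost wholly on a spread common to all regions of the kind, and not on a region's own spread. Wilson intervals (95%) cover counting error only. Alternatives were limma on log2 ratios of reads plus 1, Fisher's exact test per sex, another prior, thresholds and region sizes. Python 3.11.15, numpy 2.4.6, pandas 2.3.3, scipy 1.17.1 and numba 0.67.0 were used.

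The members and lists (regulators, cytoplasmic partners, other protocadherins, neighbours, cell type markers) were chosen with earlier results of these data known. Genes named were the extremes of each family, the C-type genes, Pcdhb1, those past a threshold, constant exons, called windows and the 5 largest differences between B and T cells in each direction with the same sign in both sexes. DNA sequence of the members is not reported here.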

Additional observations from a re-analysis of the deposited data

How the results depend on the processing

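Of the summary values under the alternatives, 41 were the same as reported, 12 moved within the tolerance (a factor of 1.5 for counts, 1 SD over files for levels) and 12 moved further. Within it, cluster windows called were 5 at a minimum of 10 reads and by Fisher's exact test, 8 and 9 in females and males alone and 8 with 500 bp windows. Without the 20-point threshold, 6 member first exons were called between B and T cells in place of 0, 1 between females and males in place of 0 (none with limma), and 20 cluster windows in place of 6. At 10 points 12 windows and 1 constant exon were called (1 constant exon also at any size, against 0). With limma 2 windows were called, and with the dispersion prior from all regions 0. The mean over files of the median promoter level, 57.5%, was 45.9% at 500 bp to either side. The same value for first exons, 68.6%, was 52.9% when only the 8 exons sharing few 50-base stretches were kept, 5 of them C-type, and 70.9% when only CpGs outside shared stretches were kept (chosen after seeing the data). The mean level of the constant exons, 61.3%, was 51.4% at a minimum of 10 reads, which leaves 3 exons. Of the values of single regions under these alternatives, 216 kept their side of the threshold, 32 lost it and 14 gained it. In 13, over 12 regions, the sign turned (12 in 1 sex alone and 1 at a minimum of 10 reads), and none of these passed the threshold in either fit. No paired analysis was possible because no replicate number is shared between groups and each group has 1 file, and no replicate could be left out for the same reason, so the female and male pairs were tested apart. With 1 file per group and 14.6 to 17.7 reads per CpG, small differences pass or miss the threshold by the estimate of the spread.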
